A study of Mus musculus with 5 samples.

Results

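Dendritic cells are leukocytes that take up antigen and present it to T cells, and 10 genes of their development and subsets were examined in the mouse uterus. The genes were chosen by name, as the growth factor, the lineage transcription factors and the lectins of conventional and plasmacytoid dendritic cells: Flt3l, Flt3, Zbtb46, Batf3, Irf4, Irf8, Clec9a, Clec10a, Cd209a and Siglech. They are 10 of the 28666 genes listed in the count table, and all 10 passed the filter on low counts that left 17013 genes for testing. The study asked whether seminal plasma (SP) from aged males acts on the uterus before implantation differently from that of young males. Whole uteri were taken from ICR females aged 6 to 8 weeks, all made pseudopregnant by mating with a vasectomized C57BL/6 male, and the groups differed in the age of that male. The aged-SP group held 2 libraries, replicates 1 and 4, and the young-SP group 3 libraries, replicates 1, 2 and 4, a further young-SP library that the authors set aside being not analysed here. The series labels put the uteri at 3.5 days after caging, and the methods of the study name a slightly earlier time. The labels say only that these are separate samples, so the p-values measure the spread between them.

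Dendritic cells arise from bone marrow precursors that carry the receptor FLT3 and grow in response to its ligand. Type 1 conventional dendritic cells depend on BATF3 and IRF8 and present antigen of dead cells to CD8 T cells, type 2 conventional dendritic cells rely on IRF4 and present to CD4 T cells, and plasmacytoid dendritic cells make type I interferon. In the mouse uterus dendritic cells lie in the endometrium around implantation, where they are known to take part in the formation of the decidua and its vessels.

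None of the 10 genes was called in edgeR's quasi-likelihood test, where a call needed an adjusted p below 0.05 with a log2 fold change beyond 1 in either direction and 0.147% of all tested genes had one. With DESeq2 and the same thresholds none was called either, beside 3.6% of the genes it tested. Of the 10, 5 had a positive and 5 a negative fitted log2 fold change (aged-SP over young-SP), with a median of 0.00, beside 0.007 over all tested genes. The values of the groups did not overlap for 3 of the 10 genes, beside 38.8% of all tested genes. For Batf3 and Flt3l both aged-SP values were above every young-SP value, and for Flt3 both were below. Batf3 was the 1 gene of the 10 with an unadjusted p under 0.05, a level that 19.0% of all tested genes reached, 9.62% with a higher and 9.36% with a lower value in the aged-SP group. In whole-tissue RNA, fewer cells of a type and less RNA per cell cannot be told apart.

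The libraries were of like depth, with total counts of 15071914 to 16728601, and differed in the summed level of leukocyte marker genes. All 12 markers of the uterus (among them the hormone receptors Esr1 and Pgr, Hoxa10, the gland factor Foxa2 and the muscle gene Myh11) were tested in these libraries, with at least 136 counts each. Young-SP replicate 1 had the highest summed neutrophil and monocyte genes. Its 5 neutrophil markers summed to 217 CPM (counts scaled to the library size after TMM correction), beside 28.4 to 99.5 in the other libraries, and its 4 monocyte markers to 857 CPM, beside 413 to 540. Within these lists S100a8, S100a9 and Csf3r were highest in this library and Retnlg was lowest, at 8.62 CPM beside 8.94 to 18.4. Ly6g, with 3 to 19 counts per library, was at 0.812 CPM in this library and highest in aged-SP replicate 4, at 1.21 CPM. Plac8 made up 744 CPM of the monocyte sum, while Ly6c2 was at 6.00 CPM in both this library and aged-SP replicate 4. Without this library the number of genes called in the whole table went from 25 to 578. Of the B cell markers, Ms4a1 and Pax5 had at most 12 counts in any library, while Cd79b had 27 to 71 and the immunoglobulin gene Ighm 311 to 690. Of the eosinophil markers, Epx had at most 1 count, while Siglecf had 38 to 101 and Ccr3 103 to 177.

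The sequence around a transcription start is shown first for the 3 genes whose groups did not overlap and for Cd209a, the most variable gene. Promoter windows of 300 bases, from 250 before to 50 after a transcription start, were taken from RefSeq on GRCm38.p6 and matched 9 of the 10 genes, all but Clec10a. For Batf3 (chr1:191098164-191098463, plus strand) and Flt3 (chr5:147400440-147400739, minus strand) the capitals mark CpG dinucleotides. For Flt3l (chr7:45136383-45136682, minus strand) and Cd209a (chr8:3748935-3749234, minus strand) they mark a motif described after the sequences.
Batf3: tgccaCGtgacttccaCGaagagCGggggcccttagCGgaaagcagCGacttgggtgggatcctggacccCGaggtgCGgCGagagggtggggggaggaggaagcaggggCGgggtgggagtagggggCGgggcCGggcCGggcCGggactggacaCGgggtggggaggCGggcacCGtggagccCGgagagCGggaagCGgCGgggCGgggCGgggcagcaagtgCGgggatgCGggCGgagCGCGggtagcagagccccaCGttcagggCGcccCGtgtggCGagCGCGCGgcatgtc
Flt3: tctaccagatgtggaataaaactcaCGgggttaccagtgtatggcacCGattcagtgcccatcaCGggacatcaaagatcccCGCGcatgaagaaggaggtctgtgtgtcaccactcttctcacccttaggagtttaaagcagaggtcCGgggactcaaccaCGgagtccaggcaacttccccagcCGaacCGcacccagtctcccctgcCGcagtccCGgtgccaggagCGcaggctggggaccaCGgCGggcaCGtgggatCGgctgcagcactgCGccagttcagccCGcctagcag
Flt3l: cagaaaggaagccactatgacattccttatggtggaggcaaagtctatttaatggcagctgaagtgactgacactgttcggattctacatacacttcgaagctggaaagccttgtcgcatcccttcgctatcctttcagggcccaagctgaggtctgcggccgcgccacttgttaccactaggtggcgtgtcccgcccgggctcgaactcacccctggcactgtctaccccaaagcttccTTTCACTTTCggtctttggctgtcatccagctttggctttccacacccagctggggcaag
Cd209a: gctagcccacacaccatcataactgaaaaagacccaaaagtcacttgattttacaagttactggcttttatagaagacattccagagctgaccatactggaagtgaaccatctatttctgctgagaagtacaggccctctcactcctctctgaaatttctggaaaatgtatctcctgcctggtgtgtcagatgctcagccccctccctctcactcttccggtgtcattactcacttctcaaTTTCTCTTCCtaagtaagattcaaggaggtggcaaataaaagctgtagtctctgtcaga

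The windows differed widely in base composition. Batf3 had 34 CpG dinucleotides and 75.7% G and C, and the upstream of the 2 Irf8 windows had 38 and 70.0%, beside medians of 7 and 52.7% over all 32851 promoter windows. Flt3 had 18 CpG dinucleotides, Flt3l 12 and Irf4 11. Siglech had 2, and Zbtb46, Clec9a and Cd209a had 1 each, with 37.0% G and C in Clec9a. Batf3 and Irf8 thus held the richest windows, and Zbtb46 and the lectins with a window (Clec9a, Cd209a and Siglech) the poorest. The Zbtb46 window (chr2:181424339-181424638, minus strand) lies inside the gene, which reaches upstream to 181459426. The Batf3 window, from 191098164 on the plus strand, also lies inside its gene, which begins upstream at 191097847. Each of these windows therefore describes an internal start and not the outermost start of the gene. Motifs of factor families among the 10 genes were searched on both strands. A pair of the interferon regulatory factor core GAAA, 2 bases apart in the same direction, was found in the Flt3l window only, on the strand opposite to the gene and beginning 10 bases before the start, and in 3.44% of all windows. A composite of the Ets core GGAA and, 2 bases on, the same GAAA was found in the Cd209a window only, also on the opposite strand and beginning 9 bases before the start, and in 2.72% of all windows. The AP-1 site of the BATF family, TGANTCA, was found in the Zbtb46 window and in 7.81% of all windows. The composite of that AP-1 site and, 4 bases on, GAAA was in none of the windows of these genes and in 0.119% of all windows. A match of letters is a description of the window and not evidence of binding.

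**Figure D1:**
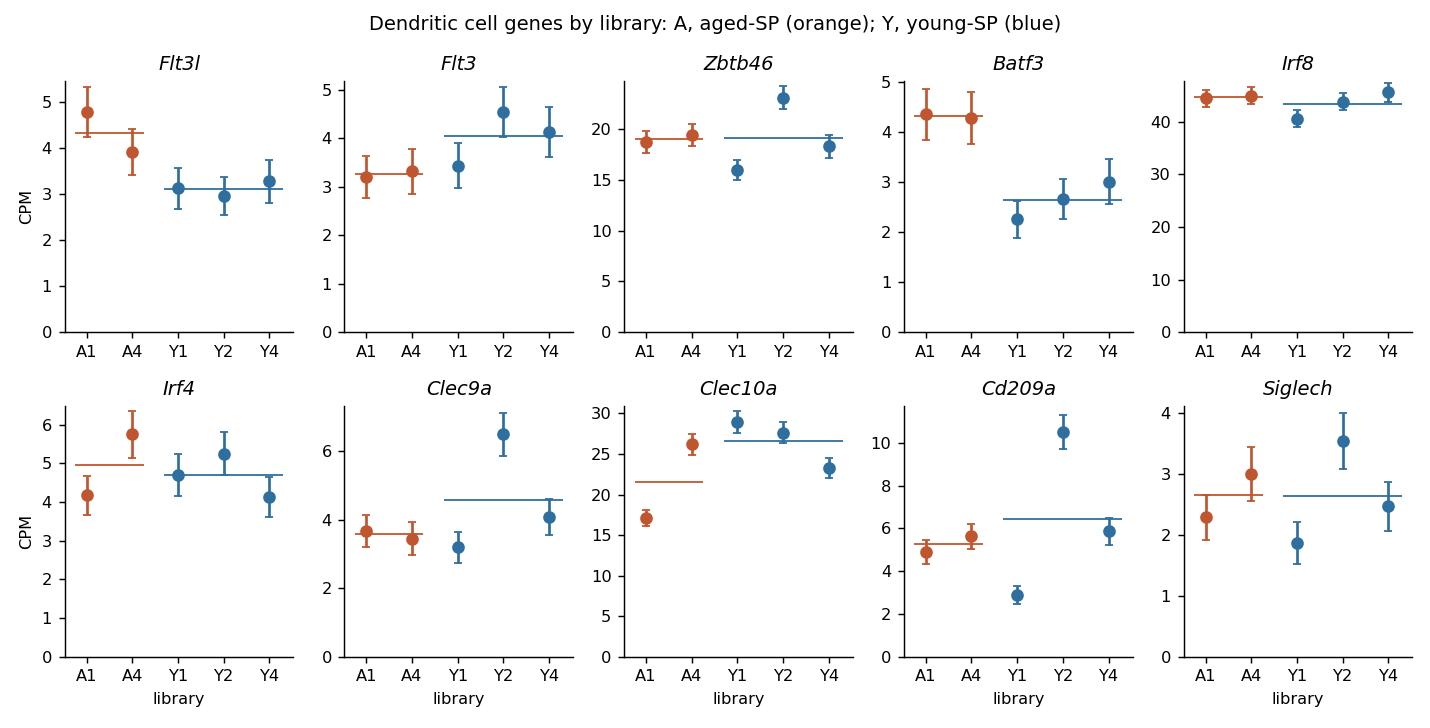
CPM of each of the 10 genes in the 2 aged-SP libraries (A1 and A4, orange) and the 3 young-SP libraries (Y1, Y2 and Y4, blue), with the axis starting at 0. Bars are the counting error of 1 library and lines are group means. A1 and A4 lie above all Y libraries for Flt3l and Batf3 and below them for Flt3, and Clec9a, Cd209a and Siglech are highest in Y2 and lowest in Y1.

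Flt3l, the cytokine that drives the growth of dendritic cell precursors, lies at chr7:45129788-45136432 on the minus strand of GRCm38. Its level was 4.77 and 3.90 CPM in aged-SP replicates 1 and 4, and 3.12, 2.95 and 3.27 CPM in young-SP replicates 1, 2 and 4. Both aged-SP values lay above all young-SP values, with means of 4.33 ± 0.617 (SD, n = 2) and 3.11 ± 0.158 CPM (SD, n = 3). The fitted log2 fold change was 0.48 ± 0.22 (SE), a 95% interval from -0.08 to 1.03 and an adjusted p of 0.318 by the test of edgeR. These are 49 to 79 counts per library, for which the counting error alone is 11.3% to 14.3%. The exons of Flt3l overlap those of Gm45713 over 856 bases, 22.1% of its length, on the same strand, and how reads of this stretch were assigned is not given in the sources used here.

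Flt3, the receptor tyrosine kinase that binds this ligand on precursors and dendritic cells, lies at chr5:147330741-147400489 on the minus strand. It was at 3.20 and 3.32 CPM in aged-SP replicates 1 and 4, and at 3.44, 4.55 and 4.13 CPM in young-SP replicates 1, 2 and 4. The groups did not overlap, but aged-SP replicate 4 and young-SP replicate 1 differed by 52 against 55 counts, less than the counting error of 13.9% and 13.5%. The fitted log2 fold change was -0.31 ± 0.23 (SE), with an adjusted p of 0.516 and a 95% interval from -0.89 to 0.27.

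The receptor and its ligand thus lay on opposite sides of 0, neither beyond the test. The ratio of Flt3l to Flt3 counts within a library was 1.49 and 1.17 in the aged-SP group and 0.909, 0.649 and 0.79 in the young-SP group. It was above 1 in both aged-SP libraries and below 1 in all young-SP libraries, with a mean 1.7 times as high. This ratio was formed after the values of the genes were seen. Its groups could not overlap, since Flt3l was higher and Flt3 lower in both aged-SP libraries. An exact two-sided permutation test of 2 against 3 libraries, with the smaller tail doubled, cannot go below the 0.2 that it gave. The share of all gene pairs whose ratio separates the groups was not computed.

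Batf3, an AP-1 family factor without which type 1 conventional dendritic cells do not form, lies at chr1:191097847-191108945 on the plus strand. It was at 4.35 and 4.28 CPM in aged-SP replicates 1 and 4, and at 2.25, 2.66 and 3.00 CPM in young-SP replicates 1, 2 and 4. The lowest aged-SP value lay above the highest young-SP value by more than the counting error of either library. Group means were 4.31 ± 0.0476 and 2.64 ± 0.376 CPM (SD, n = 2 and 3). The log2 fold change was 0.71 ± 0.24 (SE), a fold of 1.64, with a 95% interval from 0.12 to 1.3. The adjusted p was 0.207 in edgeR's quasi-likelihood test (0.0258 before adjustment), so the gene did not pass the call.

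Irf8, the factor that type 1 conventional and plasmacytoid dendritic cells share with monocytes, lies at chr8:120736358-120756694 on the plus strand. It was the steadiest of the 10 genes, at 44.5 and 45.0 CPM in aged-SP replicates 1 and 4, and at 40.6, 43.8 and 45.6 CPM in young-SP replicates 1, 2 and 4. The highest library was 1.12 times the lowest, and both aged-SP values lay within the young-SP range. Its log2 fold change was 0.05 ± 0.09 (SE) with an adjusted p of 0.821. It was -0.01 without young-SP replicate 1. The 95% interval, from 0.879 to 1.21 on the fold scale, was the narrowest of the 10 genes.

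Irf4, the related factor of type 2 conventional dendritic cells, also used by lymphocytes, lies at chr13:30749226-30766976 on the plus strand. It was at 4.17 and 5.75 CPM in aged-SP replicates 1 and 4, and at 4.69, 5.25 and 4.13 CPM in young-SP replicates 1, 2 and 4. The highest value and the lowest but one were both in the aged-SP group. The log2 fold change of 0.08 ± 0.24 (SE, adjusted p = 0.89) became -0.17 without aged-SP replicate 4 and -0.01 without young-SP replicate 4.

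Zbtb46, a zinc finger factor that separates conventional dendritic cells from other myeloid cells and is also found in endothelium, lies at chr2:181387762-181459426 on the minus strand. It was at 18.7 and 19.4 CPM in aged-SP replicates 1 and 4, and at 16.0, 23.1 and 18.3 CPM in young-SP replicates 1, 2 and 4. The aged-SP values lay within the young-SP range, and the log2 fold change was -0.01 ± 0.19 (SE, adjusted p = 0.987), or 0.15 without young-SP replicate 2 and 0.02 without aged-SP replicate 1. The endothelial genes Pecam1, Cdh5 and Kdr moved in the same order over the young-SP libraries, with a summed level of 299, 534 and 385 CPM in replicates 1, 2 and 4 and of 428 and 410 CPM in the aged-SP libraries. Per 1000 counts of these 3 genes, Zbtb46 had 43.6 and 47.3 counts in the aged-SP group and 53.5, 43.2 and 47.6 in the young-SP group. The spread of Zbtb46 from 1.44 times between the highest and the lowest library became 1.24 times on this scale, and the share of endothelium in the level of Zbtb46 was not tested.

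**Figure D2:**
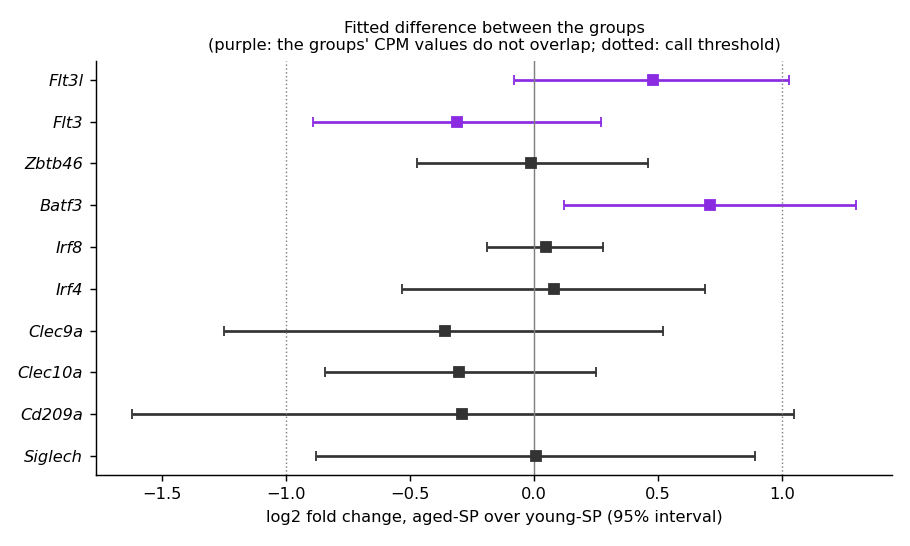
Fitted log2 fold change (aged-SP over young-SP, squares) with its 95% interval for each of the 10 genes, from the fit on all 17013 tested genes. The dotted lines mark the fold needed for a call, and purple marks the 3 genes whose groups do not overlap. The interval of Batf3, from 0.12 to 1.3, is the one that does not include 0, and the widest is that of Cd209a, from -1.62 to 1.05.

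Clec9a, the receptor with which type 1 conventional dendritic cells sense actin exposed by dead cells, lies at chr6:129408862-129424763 on the plus strand. It was at 3.68 and 3.45 CPM in aged-SP replicates 1 and 4, and at 3.19, 6.49 and 4.07 CPM in young-SP replicates 1, 2 and 4. Young-SP replicate 2 was the highest and replicate 1 of the same group the lowest, so the aged-SP values lay between them. The log2 fold change was -0.36 ± 0.35 (SE, adjusted p = 0.617), and leaving out replicate 2 or replicate 1 of the young-SP group gave -0.03 or -0.58. Its exons share 184 bases, 5.59% of its length, with those of the platelet receptor gene Clec1b.

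Batf3 and Clec9a mark the same dendritic cell subset and differed in pattern. The ratio of Batf3 to Clec9a counts was 1.18 and 1.24 in the aged-SP libraries and 0.706, 0.409 and 0.738 in the young-SP libraries, without overlap. Xcr1, the chemokine receptor of the same subset, was at 4.23 and 3.07 CPM in the aged-SP group and at 4.62, 4.01 and 3.00 CPM in the young-SP group, with full overlap (log2 fold change -0.09 ± 0.29 SE, adjusted p = 0.896). The ratio of Batf3 to Xcr1 was 1.03 and 1.40 in the aged-SP group and 0.486, 0.662 and 1.0 in the young-SP group. These ratios were also formed after the values were seen, and Batf3 by itself already separated the groups.

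Clec10a, a galactose-binding lectin of macrophages and dendritic cells, lies at chr11:70156197-70170834 on the plus strand. It was at 17.1 and 26.2 CPM in aged-SP replicates 1 and 4, and at 28.9, 27.6 and 23.3 CPM in young-SP replicates 1, 2 and 4. Aged-SP replicate 1 was the lowest library, and aged-SP replicate 4 lay within the young-SP range. Its log2 fold change of -0.30 ± 0.22 (SE, adjusted p = 0.501) was -0.02 without aged-SP replicate 1 and -0.64 without aged-SP replicate 4. Of its 50-base stretches, 9.02% occur in transcripts of other genes, its neighbor Mgl2 among them.

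Mgl2, the paralog of Clec10a on the same chromosome (chr11:70130329-70137550) and a marker of type 2 conventional dendritic cells, went the other way. It was at 12.7 and 12.4 CPM in aged-SP replicates 1 and 4, and at 8.31, 8.38 and 8.60 CPM in young-SP replicates 1, 2 and 4. Both groups were tight, with SDs of 0.246 and 0.152 CPM, and did not overlap. The log2 fold change of 0.58 ± 0.14 (SE) had an adjusted p of 0.138 and did not pass the call. The ratio of Clec10a to Mgl2 counts was 1.34 and 2.11 in the aged-SP group and 3.48, 3.29 and 2.71 in the young-SP group, where all 3 values lay above both aged-SP values. This ratio was also formed after the values were seen. Its exact two-sided permutation p was 0.2, the smallest that 2 against 3 libraries can give when the smaller tail is doubled.

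**Figure D3:**
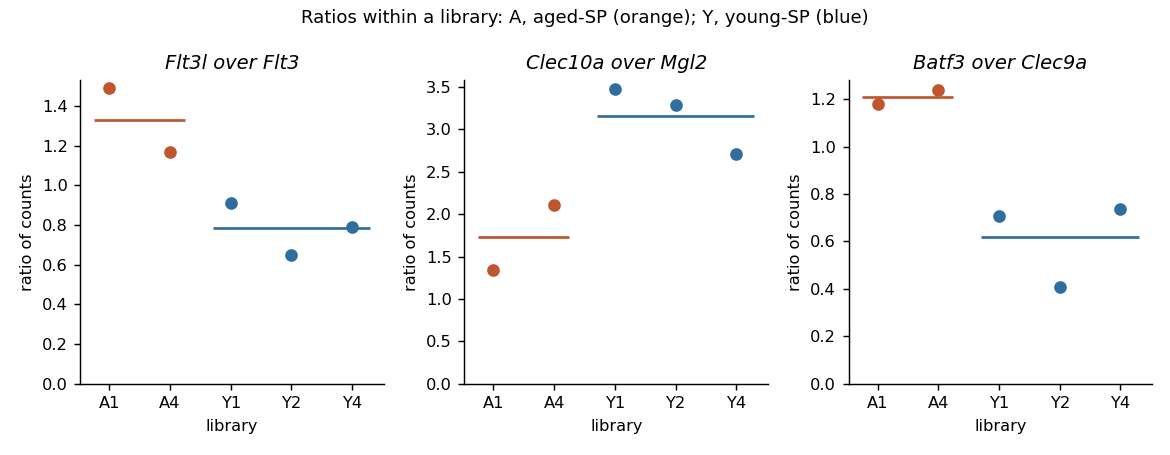
Ratios of counts within each library for Flt3l over Flt3, Clec10a over Mgl2 and Batf3 over Clec9a, in the aged-SP (A1 and A4, orange) and young-SP libraries (Y1, Y2 and Y4, blue), with group means as lines and axes from 0. The groups do not overlap in any of the 3 ratios, which were chosen after the values were seen. For Flt3l over Flt3 no overlap was possible, since Flt3l is higher and Flt3 lower in both aged-SP libraries. Batf3 and Mgl2 already separate the groups by themselves.

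Cd209a, a lectin of the DC-SIGN family found on type 2 conventional and monocyte-derived dendritic cells, lies at chr8:3743397-3748984 on the minus strand. It was at 4.89 and 5.62 CPM in aged-SP replicates 1 and 4, and at 2.87, 10.5 and 5.87 CPM in young-SP replicates 1, 2 and 4. The young-SP group held the lowest and the highest library, 3.66 times apart (46 and 178 counts, with counting errors of 14.7% and 7.5%). Its log2 fold change was -0.29 ± 0.53 (SE, adjusted p = 0.805), with an interval on the fold scale from 0.324 to 2.06. Without young-SP replicate 2 it was 0.26, and without young-SP replicate 1 it was -0.65, with no call in either case.

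Siglech, the sialic acid-binding lectin of plasmacytoid dendritic cells, lies at chr7:55768178-55778925 on the plus strand and had the fewest counts, 30 to 60 per library. It was at 2.29 and 3.00 CPM in aged-SP replicates 1 and 4, and at 1.87, 3.54 and 2.47 CPM in young-SP replicates 1, 2 and 4. The aged-SP values lay within the young-SP range, and the log2 fold change was 0.01 ± 0.35 (SE, adjusted p = 0.993). Its 95% interval on the fold scale ran from 0.545 to 1.86, with 2 and 3 libraries and a biological coefficient of variation of 29.5%. Leaving out aged-SP replicate 4 or young-SP replicate 1 gave -0.20, and leaving out young-SP replicate 4 gave -0.04.

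The order of the 10 genes by level was set by FPKM, the fragments per kilobase of gene scaled to the library total, which accounts for gene length. By mean FPKM over the 5 libraries Clec10a was the highest at 8.50, followed by Irf8 at 6.22, Cd209a at 3.78, Zbtb46 at 2.25, Batf3 at 2.07, Clec9a at 1.27, Irf4 at 0.979, Flt3l at 0.928, Siglech at 0.781 and Flt3 at 0.604. The ranges of all 9 neighboring pairs in this order overlapped over the libraries. The order was the same with TPM, the FPKM rescaled to 1 sum per library, and without young-SP replicate 2 only 6 of the 10 genes kept their place. Among all tested genes these means lay between the percentiles 12.1 (Flt3) and 63.9 (Clec10a). The lectin shared with macrophages and the factor shared with monocytes thus headed the order, and the receptor Flt3 and the plasmacytoid gene Siglech closed it.

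**Figure D4:**
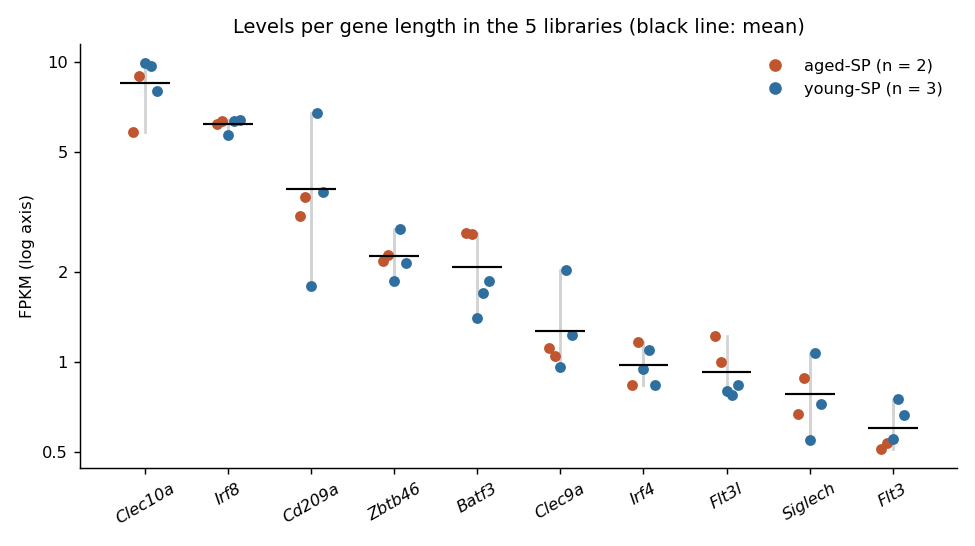
FPKM on a log axis for the 10 genes, ordered by their mean over the 5 libraries (black lines), with 1 point per library in orange for aged-SP and blue for young-SP. The means run from 8.50 for Clec10a to 0.604 for Flt3, and the ranges of neighbors overlap.

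The young-SP libraries spread more than the groups differed for most of the genes. Young-SP replicate 2 was the highest library for 5 of the 10 genes (Flt3, Zbtb46, Clec9a, Cd209a and Siglech), and young-SP replicate 1 the lowest for 6 (Zbtb46, Batf3, Irf8, Clec9a, Cd209a and Siglech). The biological coefficient of variation from the fit had a median of 22.1% over the 10 genes, from 12.4% for Irf8 to 42.7% for Cd209a, beside 19.6% over all tested genes. The 10 genes together summed to 108 and 120 CPM in the aged-SP group and to 107, 130 and 114 CPM in the young-SP group.

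Markers of other leukocytes did not follow the same order. The 7 pan-leukocyte genes, Ptprc among them, summed to 449 and 459 CPM in the aged-SP libraries and to 597, 417 and 417 CPM in young-SP replicates 1, 2 and 4. The 13 macrophage genes summed to 1440 and 2370 CPM in the aged-SP libraries and to 2140, 1110 and 1540 CPM in the young-SP libraries. Young-SP replicate 2 had the highest sum of the 10 genes and the lowest macrophage sum, and young-SP replicate 1 the lowest sum of the 10 genes (107 CPM, beside 108 CPM in aged-SP replicate 1) with the highest leukocyte sum. Longer marker lists of dendritic cells gave another order. Young-SP replicate 1 had the highest sum of the lists for type 1 (889 CPM), type 2 (465 CPM), plasmacytoid (924 CPM) and all dendritic cells (648 CPM), and young-SP replicate 2 the lowest of all but the type 2 list. Cd24a, abundant in epithelium, made up 705 CPM of the type 1 sum in young-SP replicate 1 and 259 of 418 CPM in young-SP replicate 2. Bst2 and Tcf4 had the highest values of the plasmacytoid list in young-SP replicate 1, at 280 and 278 CPM. Per 1000 pan-leukocyte counts Batf3 had 9.68 and 9.31 counts in the aged-SP group and 3.77, 6.37 and 7.19 in the young-SP group. Flt3l had 10.6 and 8.48 against 5.23, 7.08 and 7.82 on the same scale. Among the 10 genes the groups did not overlap for Batf3 and Flt3l alone on this scale, while those of Flt3 did (7.13 and 7.23 against 5.76, 10.9 and 9.90). The share of all tested genes without overlap was not computed on this scale, and was 38.8% for CPM. Per 1000 macrophage counts the groups overlapped for Batf3, with 3.01 and 1.80 against 1.05, 2.38 and 1.95. They also overlapped for Flt3l, with 3.31 and 1.64 against 1.46, 2.65 and 2.13. Clec10a alone of the 10 genes did not overlap on the macrophage scale. Its higher aged-SP value was 11.8 and its lowest young-SP value 13.5. The share of all tested genes without overlap was not computed on the macrophage scale either. The median log2 difference of the 10 genes relative to the pan-leukocyte counts was 0.08, beside an SD of 0.55 between libraries of a group, and it was -0.24 relative to the macrophage counts. The part of cell makeup in these values was not tested.

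**Figure D5:**
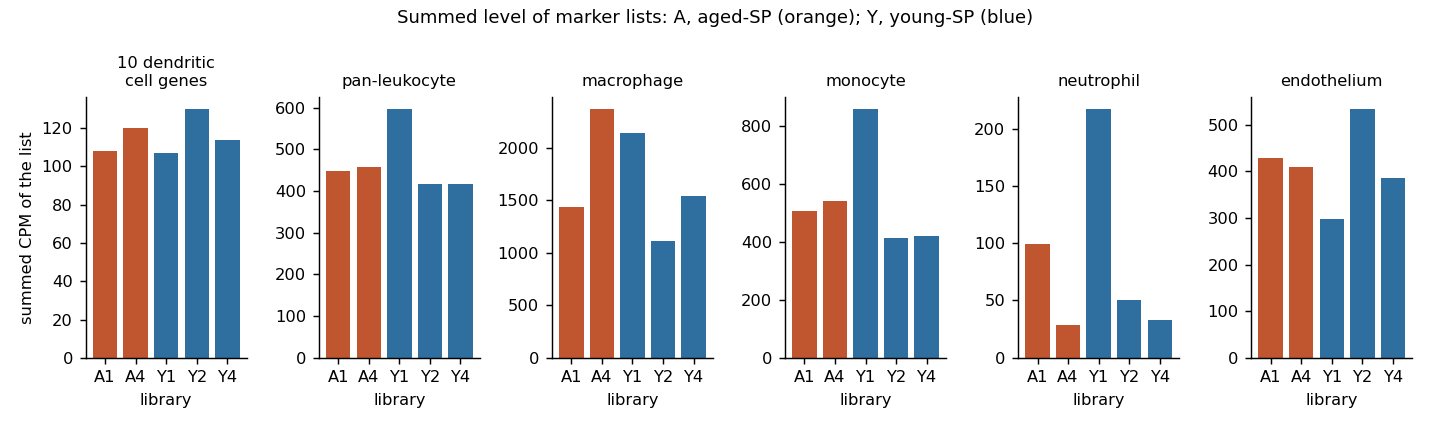
Summed CPM of the 10 dendritic cell genes and of 5 marker lists in the aged-SP (A1 and A4, orange) and young-SP libraries (Y1, Y2 and Y4, blue), each on its own axis from 0. Y1 has the highest pan-leukocyte (597), monocyte (857) and neutrophil (217) sums and Y2 the lowest macrophage sum (1110).

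Other genes of the dendritic cell lineage, in lists for subsets, transcription factors, receptors and migration, gave a wider view. Of their 68 genes 66 were tested, and none passed the call or an adjusted p under 0.05 in edgeR's quasi-likelihood test, with adjusted p-values of 0.0867 to 0.98. At an unadjusted p under 0.05, 12 lay higher and 5 lower with aged SP, 25.8% of the tested genes, beside 19.0% of all tested genes. DESeq2 called none either, but gave Relb, Kit, Dpp4, Fscn1 and Socs2 an adjusted p below 0.05 with folds short of the call. The median log2 fold change of the 66 genes was 0.13. The groups did not overlap for 15 of the 66 with a higher and 8 with a lower level in the aged-SP group, beside 19.5% and 19.3% of all tested genes.

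Among the 15 transcription factors 5 were higher and 2 lower at an unadjusted p under 0.05 in edgeR's test, beside 9.62% and 9.36% of all tested genes. The same shares of all tested genes apply to such counts in the lists that follow. The median log2 fold change of the 15 factors was 0.36, beside 0.007 over all tested genes. Relb, the NF-kB subunit of type 2 conventional dendritic cells and of maturation, was at 20.9 ± 6.32 CPM in the aged-SP and 11.9 ± 1.22 CPM in the young-SP group (means ± SD, n = 2 and 3, an order kept for the genes that follow, log2 fold change 0.81 ± 0.22 SE, adjusted p = 0.154), and its fold change was 0.46 without aged-SP replicate 1. Bcl6, a repressor of germinal center B cells that is also used in dendritic cells, was at 27.4 ± 1.49 and 18.7 ± 2.58 CPM (0.55 ± 0.16, adjusted p = 0.164). Stat3, which signals from FLT3 and many cytokine receptors and is expressed throughout the uterus, was at 268 ± 55.8 and 193 ± 14.4 CPM (0.47 ± 0.15, adjusted p = 0.200), or 0.24 without aged-SP replicate 1. As with Batf3, both aged-SP values of these 3 genes lay above the young-SP range. The 2 lower factors were Id2, at 122 ± 45.6 and 202 ± 27.0 CPM (-0.73 ± 0.26, adjusted p = 0.221 by the test of edgeR), and Ikzf1. Ikzf1 was at 15.6 ± 2.28 and 21.2 ± 2.29 CPM (-0.44 ± 0.17, adjusted p = 0.244), and both lay below the young-SP range. Over the 15 factors the groups did not overlap for 5 with a higher and 3 with a lower level in the aged-SP group, beside 19.5% and 19.3% of all tested genes.

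Of the 5 receptors of precursors 1 was lower at that level and none higher. Kit, the stem cell factor receptor, which mast cells also carry, was at 15.4 ± 0.438 CPM in the aged-SP and 26.2 ± 5.07 CPM in the young-SP group (log2 fold change -0.76 ± 0.20 SE, adjusted p = 0.145). It lay below the young-SP range in both aged-SP libraries, as Flt3 of the same receptor family did. The mast cell markers did not go with it, with summed levels of 59.3 and 196 CPM in the aged-SP group and 22.4, 48.2 and 79.5 CPM in the young-SP group. Csf2rb, the shared chain of the GM-CSF receptor, had a log2 fold change of 0.23 ± 0.22 (adjusted p = 0.605), and Csf1r, the macrophage growth factor receptor, 0.22 ± 0.31 (adjusted p = 0.737). Csf2rb ranged from 0.09 without young-SP replicate 4 to 0.45 without young-SP replicate 1, and Csf1r from -0.16 to 0.52 without aged-SP replicates 4 and 1.

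For type 1 conventional dendritic cells 1 of 9 tested genes reached an unadjusted p under 0.05. It was Cadm1, an adhesion molecule also made by epithelium, at 68.1 ± 11.8 and 49.2 ± 1.72 CPM (log2 fold change 0.47 ± 0.13 SE, adjusted p = 0.150), or 0.28 without aged-SP replicate 4. Clnk, a signaling adaptor, was at 0.918 ± 0.666 and 1.67 ± 0.555 CPM (-0.85 ± 0.57, adjusted p = 0.462), and Cd24a, abundant in epithelium, at 592 ± 38.5 and 432 ± 239 CPM (0.46 ± 0.43, adjusted p = 0.602). Clnk ranged from -1.89 without aged-SP replicate 1 to -0.27 without aged-SP replicate 4, and Cd24a from 0.99 to 0.19 without young-SP replicates 1 and 2. Of the type 2 genes 2 of 9 reached that level, Mgl2 and Klf4, a factor shared with epithelium, at 47.7 ± 19.6 and 28.8 ± 5.0 CPM (0.73 ± 0.28, adjusted p = 0.255). Without aged-SP replicate 1 the log2 fold change of Klf4 was 0.23, and without aged-SP replicate 4 it was 1.10. Notch2, the receptor that the type 2 cells of the spleen require, was at 109 ± 0.19 and 108 ± 7.79 CPM, a log2 fold change of 0.01 that was -0.05 without young-SP replicate 1.

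In the plasmacytoid list 2 of 13 tested genes were higher and 1 lower at an unadjusted p under 0.05. The largest fold changes were those of Klk1, a kallikrein, and Ly6d, a lymphoid surface protein. Klk1 counts were 1583 and 145 with aged SP and 128, 40 and 68 with young SP, and most of its fold change (3.4 on the log2 scale ± 0.99 SE, adjusted p = 0.171) lay in aged-SP replicate 1, since it was 0.90 without that library. Ly6d counts were 61 and 33 with aged SP and 19, 1 and 4 with young SP (2.51 ± 0.91, adjusted p = 0.234). Tcf4, the factor that sets plasmacytoid identity but is expressed in many uterine cells, was at 310 ± 4.32 and 302 ± 21.5 CPM (0.04 ± 0.10, adjusted p = 0.874, or -0.03 without young-SP replicate 1).

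Of the 6 genes in the list for all dendritic cells 3 lay above and 3 below 0, with a median log2 fold change of 0.09 and 1 with an unadjusted p under 0.05. Dpp4, the peptidase CD26, was at 113 ± 29.3 and 68.0 ± 3.4 CPM (log2 fold change 0.74 ± 0.17 SE, adjusted p = 0.120), or 0.44 without aged-SP replicate 1. Itgax, which encodes the integrin CD11c, was at 15.1 and 19.8 CPM in the aged-SP libraries and at 14.5, 11.4 and 11.3 CPM in the young-SP libraries (0.49 ± 0.20, adjusted p = 0.266), or 0.29 without aged-SP replicate 4. The invariant chain gene Cd74 was at 290 ± 0.012 and 302 ± 47.8 CPM (-0.06 ± 0.15, adjusted p = 0.862), or 0.05 without young-SP replicate 1.

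Of the 9 genes of migrating and mature dendritic cells 7 lay above 0 and 2 below, with a median log2 fold change of 0.88, while 1 was higher and 1 lower at an unadjusted p under 0.05. Fscn1, which encodes the actin bundler fascin, found in mature dendritic cells and in other motile cells, was at 70.5 ± 3.78 and 112 ± 12.0 CPM (-0.67 ± 0.12, adjusted p = 0.0867), the smallest adjusted p of the wider lists. Socs2, a cytokine signaling inhibitor, was at 92.2 ± 29.1 and 52.0 ± 5.21 CPM (0.83 ± 0.21, adjusted p = 0.139), or 0.46 without aged-SP replicate 1. The chemokine receptor Ccr7 had a log2 fold change of 1.37 ± 0.76 (adjusted p = 0.387), and the chemokine Ccl22 of 1.49 ± 0.83 (adjusted p = 0.390). Ccl22 had its highest value, 13.8 CPM, in aged-SP replicate 1 and its lowest, 1.79 CPM, in aged-SP replicate 4. Ccr7 in aged-SP replicate 4, at 1.72 CPM, lay below young-SP replicate 1, at 2.12 CPM. Among the costimulatory genes Cd80 was at 0.90 ± 0.40 (adjusted p = 0.307), Cd40 at 0.88 ± 0.38 (adjusted p = 0.297) and Cd86 at 0.20 ± 0.33 (adjusted p = 0.782) on the same log2 scale. Cd83 of the same list went the other way, at -0.74 ± 0.34 (adjusted p = 0.310 by the test of edgeR). The groups overlapped for Cd40, Cd86 and Cd83 and did not for Cd80.

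Leaving out young-SP replicate 1 gave calls in the wider lists, and 4 genes passed. Irf7, a factor of plasmacytoid cells and of the interferon response, then had a log2 fold change of 1.76 (adjusted p = 0.0126), beside 0.64 (adjusted p = 0.671) with all libraries. Its counts were 1449 and 1428 with aged SP and 1922, 398 and 430 with young SP, the highest being in replicate 1. Bst2 went from 0.51 to 1.03 (adjusted p = 0.034 without the library), Ly6d from 2.51 to 4.12 (adjusted p = 0.0427) and Cd83 from -0.74 to -1.02 (adjusted p = 0.0279). In that fit 3.45% of all tested genes were called, and none of the 10 genes was among them.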

How the data were processed

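RNA of whole uteri from 5 females (2 aged-SP, 3 young-SP) was analysed, grouped by the sample labels. The authors aligned the reads with HISAT2, and the deposited table gives the raw count of each gene per library. The submitters' processing notes name HISAT2 2.1.0, Bowtie2 2.2.3 and HTSeq 0.6.0, and the genome build is not given in the sources used here. The positions of 26998 of the 28666 genes are those of GENCODE M21 (GRCm38), the build used for coordinates. The deposited FPKM were made by the authors as the count divided by the library total and the gene length, which held within 0.1% for all 15213 genes with at least 10 counts in every library. The deposited table also holds the authors' DESeq2 comparison (mean signal over libraries, log2 fold change and p-values), which was not used. How reads of overlapping genes were assigned is not given in the sources used here.

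Counts were filtered with filterByExpr, scaled by TMM (factors 0.990 to 1.02) and compared with glmQLFit and glmQLFTest of edgeR 4.0.16 in R 4.3.3, with Benjamini-Hochberg adjustment over all 17013 tested genes. CPM are TMM-scaled, and intervals are 95%. Counting errors are 1 over the root of the count and cover counting error only. DESeq2 1.42.0, limma-voom (limma 3.58.1), other scalings and filters, a replicate block and leaving out each library were the alternatives. All 10 pairs of libraries differed beyond sampling noise. All 10 members were named, and of each wider dendritic cell list the 2 genes with the smallest p and the 1 with the highest mean CPM, and of the lectin relatives 1 of each kind. Some results under this rule are not reported here. Xcr1, Irf7, Bst2, Cd83, Ccr7, Ccl22, Cd80, Cd40, Cd86, Id2 and Ikzf1 were named after their values were seen. The members and lists were chosen with earlier results of these data known.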

Additional observations from a re-analysis of the deposited data

How the results depend on the processing

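None of the 10 genes was called in any of the settings tried, and the smallest adjusted p over them was 0.198, for Batf3 (range 0.198 to 0.642). Flt3, Flt3l, Batf3, Clec9a and Clec10a kept their direction in all alternatives, and 13 of 110 alternative fold changes of the 10 genes reversed. The number of genes called in the whole table was 25, 632 with DESeq2 (3.6% of 17536), 203 without a filter, 2 with the replicate block, 786 with scaling to the pan-leukocyte genes (4.62%, 479 higher and 307 lower), and 1 to 578 with 1 library left out. The wider lists had 0 to 4 calls with 1 library left out. Of the levels, 6 to 10 genes kept their place with 1 library left out. Reversed log2 fold changes were 0.00 for Zbtb46 with limma-voom, -0.01 for Siglech and -0.00 for Notch2 with library size alone, and, with the replicate block, 0.15 for Zbtb46, 0.34 for Cd209a, -0.02 for Csf1r and -0.31 for Siglec1. The cause was not tested. With 1 library left out, the ranges were -0.65 to 0.26 for Cd209a, -0.16 to 0.05 for Cd74, -0.16 to 0.52 for Csf1r, -0.17 to 0.29 for Irf4, -0.01 to 0.08 for Irf8, -0.05 to 0.06 for Notch2, -0.49 to 0.62 for Siglec1, -0.20 to 0.28 for Siglech, -0.03 to 0.06 for Tcf4 and -0.13 to 0.15 for Zbtb46. The members that did not overlap between the groups were 4, 4, 5, 4 and 5 without aged-SP replicates 1 and 4 and young-SP replicates 1, 2 and 4, beside 61.1%, 63.9%, 55.4%, 46.3% and 49.4% of all tested genes, and Batf3, Flt3 and Flt3l were among them each time. This last series, and the alternatives for genes outside the 10, were chosen after seeing the data. The replicate numbers 1 and 4 occur in both groups, and deviations from the group means correlated at 0.152 and 0.136 within them, but no label ties the numbers to a shared batch, and with 2 shared numbers they were not taken to pair the samples. Without an aged-SP library the lone sample is assumed to vary like the young-SP group. Counts of 30 to 110 per library in Siglech, Flt3, Flt3l, Batf3, Irf4 and Clec9a limit the precision of those genes.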

Other observations

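Relatives of the lectins were read from the same fit. Of 18 tested lectin relatives, Mgl2 was the 1 gene with an unadjusted p under 0.05, and Siglec1, the sialoadhesin of tissue macrophages and the relative with the highest level, was at 27.2 ± 11.8 CPM in the aged-SP and 26.6 ± 16.7 CPM in the young-SP group (log2 fold change 0.03 ± 0.58 SE, adjusted p = 0.981 in edgeR's test).

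The lists for T cells and NK cells, which dendritic cells can activate, lay lower in the aged-SP group by their medians, with no gene called by edgeR. The 5 T cell genes had a median log2 fold change of -0.81, and DESeq2 called Cd3g (adjusted p = 0.0416). In edgeR's test 2 of them, Cd3d (-1.13) and Cd3g (-1.11), had an unadjusted p under 0.05. Cd4 of the same list went the other way (0.54), and the groups overlapped for Cd4, Cd3e (-0.81) and Cd8a (-0.22). All 6 NK cell genes had negative log2 fold changes, with a median of -0.83. Of these 2, Ncr1 and Nkg7, had an unadjusted p under 0.05 with edgeR, beside 9.36% of all tested genes with a lower value. Lyve1, a marker of perivascular macrophages and lymphatic vessels, was counted 1452 and 1439 times with aged SP and 694, 894 and 796 times with young SP (log2 fold change 0.85, adjusted p = 0.0734 with edgeR and 1.39e-05 with DESeq2). Of the 13 macrophage genes, Lyve1 among them, 9 lay above 0 and 4 below, with a median log2 fold change of 0.22. The groups did not overlap for 2 of them, both higher with aged SP, beside 19.5% of all tested genes. These were Lyve1 and Mertk (0.25 ± 0.12 SE, adjusted p = 0.323 with edgeR), while the others, C1qa and Adgre1 among them, overlapped between the groups. These genes were named after their values were seen.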
